A study of Mus musculus with 8 samples.

Results

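Goblet cells make the mucus that covers the intestinal epithelium. The genes described here are 8 of their products, namely Muc2, Tff3, Fcgbp, Clca1, Zg16, Agr2, Spink4 and Retnlb. They were read through every probe set (the group of short probes on an array that reports a transcript) that the array's annotation assigns to exactly 1 of them. That gave 12 of the 34945 probe sets with a single gene, and 8 of the 18193 genes those probe sets cover. Expression was measured on Affymetrix 3' expression arrays of intestine from C57BL/6 mice, all 110 days old. Colon and small intestine each gave 4 arrays, hybridised with RNA pooled from mice of 1 genotype, so that each group held 1 array and there were no replicates. The 4 groups of a tissue were tumours of ACKR2-/- ApcMin/+ mice (ACKR2KO_ApcMin), tumours of ApcMin/+ mice (ApcMin), non-tumour tissue of ACKR2-/- mice (ACKR2KO) and non-tumour tissue of wild-type C57BL/6 mice (WT). ApcMin/+ mice carry a truncating mutation in 1 copy of the tumour suppressor gene Apc and form intestinal tumours spontaneously; ACKR2, or D6, is an atypical chemokine receptor that takes up inflammatory CC chemokines without signalling through G proteins.

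Several features of this design bear on every value below. The non-tumour tissue came from mice without the ApcMin allele, so tumours were not set against tissue of the same animals. The labels name the ileum for the small-intestinal tumours but give no segment for the non-tumour small intestine, and they do not give the number of animals or the sex in a pool. In such bulk RNA, fewer goblet cells and less mucus RNA per goblet cell cannot be told apart.

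In the intestine, goblet cells package the gel-forming mucin MUC2 into granules and release it at the surface, where it unfolds into a net-like gel. The gel is layered and keeps bacteria off the epithelium in colon, while in small intestine it is looser and not attached. Other goblet cell proteins are secreted with it: FCGBP is bound to the mucin, ZG16 is a lectin that aggregates Gram-positive bacteria, CLCA1 is a metalloprotease that cleaves MUC2 and TFF3 is a trefoil peptide that promotes repair of the epithelium. AGR2 is a protein disulphide isomerase of the endoplasmic reticulum that goblet cells need to assemble MUC2. SPINK4 belongs to the Kazal-type serine protease inhibitors by sequence. RETNLB (resistin-like molecule beta) is an antimicrobial goblet cell protein, known in mice for its induction by bacteria and by the type 2 cytokines IL-4 and IL-13.

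RefSeq promoter sequences (build GRCm38.p6) were at hand for Muc2, Fcgbp and Agr2. The 250 bases before each gene's start are shown for these 3 genes because no other member had such a sequence. Capitals mark matches, on either strand, to 4 short motifs: TTTAT (the core of CDX sites), TGTTTAC (FOXA sites), CAGCTG (an E-box) and TATAAA (the core-promoter box bound by TBP). All lie on the plus strand, at chr7:141690090-141690339 for Muc2, chr7:28070986-28071235 for Fcgbp and chr12:35992675-35992924 for Agr2.
Muc2: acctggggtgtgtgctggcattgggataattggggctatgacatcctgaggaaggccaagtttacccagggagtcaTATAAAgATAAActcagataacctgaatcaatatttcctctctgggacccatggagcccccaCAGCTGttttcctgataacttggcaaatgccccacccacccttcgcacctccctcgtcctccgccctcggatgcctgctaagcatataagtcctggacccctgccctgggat
Fcgbp: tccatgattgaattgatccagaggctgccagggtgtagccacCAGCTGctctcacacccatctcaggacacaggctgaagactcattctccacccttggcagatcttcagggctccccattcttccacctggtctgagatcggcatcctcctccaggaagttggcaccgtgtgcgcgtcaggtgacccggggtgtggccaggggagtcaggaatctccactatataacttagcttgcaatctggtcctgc
Agr2: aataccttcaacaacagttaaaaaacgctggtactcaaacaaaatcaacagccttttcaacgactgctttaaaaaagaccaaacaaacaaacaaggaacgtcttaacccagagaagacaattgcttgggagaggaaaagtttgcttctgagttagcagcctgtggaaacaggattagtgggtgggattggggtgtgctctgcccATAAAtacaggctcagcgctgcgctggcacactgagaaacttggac
The Muc2 window held 2 matches to TTTAT, both on the minus strand (read here as ATAAA), 1 to CAGCTG and 1 to TATAAA, which overlaps the first ATAAA. The Fcgbp window held 1 match, to CAGCTG, and the Agr2 window 1 match, to TTTAT on the minus strand. None of the 3 windows matched TGTTTAC. Over the same window of 32851 promoters, 37.3% held TTTAT, 13% CAGCTG, 12.4% TATAAA and 3.17% TGTTTAC, so that such matches are common and are given as a description of the letters alone.

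Values are MAS5 signals, a linear brightness per probe set that the authors scaled so that each array had the same trimmed mean of 500. Signals of different probe sets depend on their probes, so levels are compared only within a probe set. For the tests, a floor was placed at a signal of 64.1. Weaker signals were raised to this value, and the 14023 genes that exceeded it in 2 or more of the 8 arrays were fitted together with limma. All 8 members passed. Standard errors (SE) and adjusted p-values from this fit rest on the disagreement of colon and small intestine over the effect of ACKR2 loss, and carry no information on variation among animals. Called means an adjusted p (Benjamini-Hochberg, over all genes tested) below 0.05.

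Checks of the arrays gave the following. Median signal ran from 85.5 to 133.1. Small-intestinal enterocyte markers separated the organs: 11 of these genes summed to 5392 to 11568 in the 4 colon arrays and to between 131480 and 251160 in the 4 small-intestinal arrays. The summed signal of the 10 colonocyte genes did not separate them. Their sum was 25318 to 109740 in the colon arrays and 8672 to 36120 in the small-intestinal arrays, where 36120 was the WT array and lay above the ACKR2KO_ApcMin colon tumours. Taken singly, Atp12a, Aqp4, Aqp8 and Ggh were higher in every colon array than in any small-intestinal array. Car1, Slc26a3 and Slc37a2 were not. In WT small intestine the colonocyte genes Car1, Aqp8 and Slc37a2 had signals of 18864, 958 and 577, against at most 114, 122 and 85.3 in the other 3 small-intestinal arrays. Other genes of the list did not share this. Aqp4 and Slc26a3 had 454 and 4981 in WT small intestine, inside the range of the other 3 arrays, and Ggh had 433, below them. Atp12a and Scnn1g were under the floor in all 4 small-intestinal arrays. The chosen Ackr2 probe set had 71.3 to 153 in the ACKR2-deficient arrays and 90.7 to 116 in the ACKR2-intact arrays; its place with respect to the deletion is not stated, so this is no check of genotype, and groups are called by their labels. Pools also differed in sex-linked RNA. Xist, expressed from the inactivated X of females, had 77.9 and 127 in the ACKR2KO_ApcMin arrays and at least 2818 elsewhere. The Y-linked Eif2s3y was at 2.92 for WT colon and 2.66 for WT small intestine, and at 888 or more in the other 6 arrays. Xist thus differed between tumour and non-tumour arrays of ACKR2-deficient mice in both organs, and Eif2s3y between those of ACKR2-intact mice. Sex and tumour status cannot be told apart in these pairs. The Actb 3'/5' signal ratio, a measure of RNA integrity, was 1.28 to 1.39 in the ACKR2-deficient arrays and 1.13 to 1.17 in the ACKR2-intact arrays. The same ratio for Gapdh overlapped, with 0.740 to 0.866 in the ACKR2-deficient and 0.772 to 0.952 in the ACKR2-intact arrays.

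**Figure D1:**
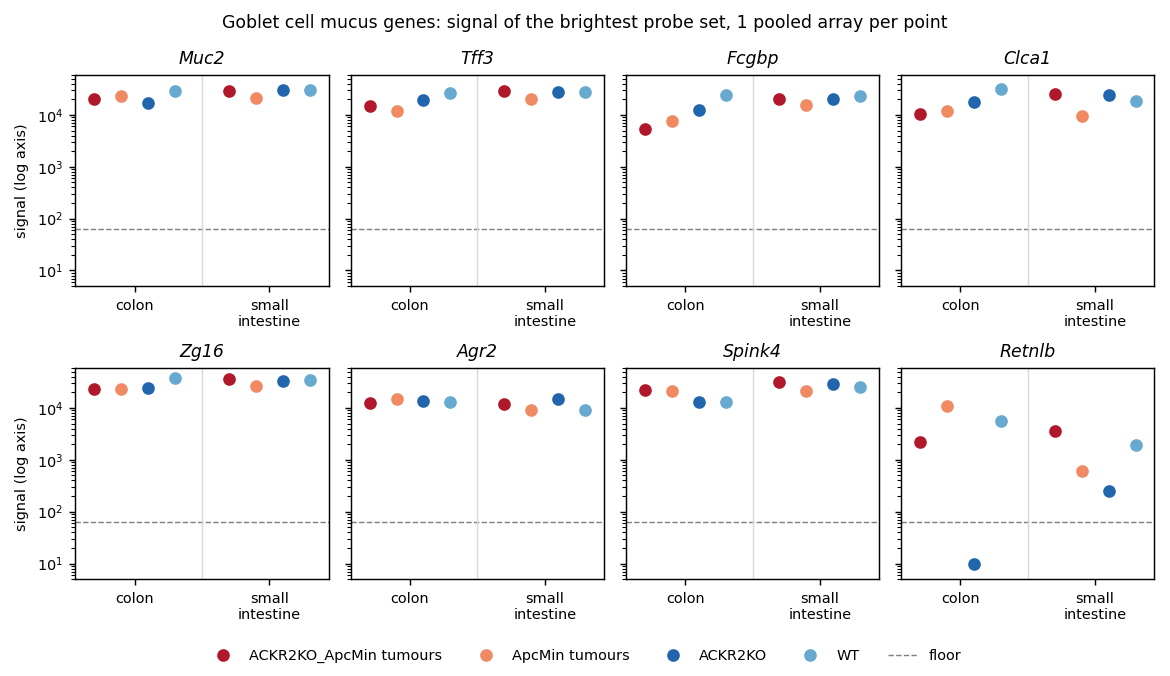
Signal of the brightest probe set of each of the 8 mucus genes (log axis) in the 8 arrays, 1 pooled array per point, with colon on the left and small intestine on the right of each panel. The dashed line is the floor of 64.1. Only Retnlb has a value below it, 9.86 in ACKR2KO colon, while Muc2, Zg16 and Agr2 stay within a 1.82-fold range.

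Muc2, the gel-forming mucin itself, had in colon a signal of 20678 in ACKR2KO_ApcMin tumours and 23567 in ApcMin tumours, against 16870 in ACKR2KO tissue and 28886 in WT tissue. Its small-intestinal signals were 28660 in ACKR2KO_ApcMin tumours and 21451 in ApcMin tumours, against 30158 in ACKR2KO tissue and 30635 in WT tissue. The highest and lowest of the 8 differed 1.82-fold, and in colon the tumour values lay between the non-tumour ones. Fcgbp, whose product is bound to the mucin, had 5427 in ACKR2KO_ApcMin and 7538 in ApcMin colon tumours, against 12315 in ACKR2KO and 24362 in WT colon. Fcgbp in small intestine was at 19840 and 15286 in the ACKR2KO_ApcMin and ApcMin tumours, against 20416 and 23568 in ACKR2KO and WT tissue. Both colon tumour arrays thus lay below the other 6, and the range was 4.49-fold. Zg16, the bacteria-binding lectin, had 23604 and 23007 in ACKR2KO_ApcMin and ApcMin colon tumours, against 23684 and 38256 in ACKR2KO and WT colon. Its small-intestinal signals were 35555 and 25891 in the ACKR2KO_ApcMin and ApcMin tumours, against 32821 and 34704 in ACKR2KO and WT tissue. WT colon was the highest array for Zg16, and the range was 1.66-fold.

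Clca1, the mucin-cleaving metalloprotease, had 10581 and 11863 in ACKR2KO_ApcMin and ApcMin colon tumours, against 17851 and 31032 in ACKR2KO and WT colon. In small intestine, Clca1 signal was 25012 in ACKR2KO_ApcMin tumours and 9476 in ApcMin tumours, against 24698 in ACKR2KO tissue and 18733 in WT tissue. The lowest array was therefore a small-intestinal tumour pool, and the colon tumours lay below both non-tumour colon arrays. Tff3, the trefoil peptide, had 14876 and 12073 in ACKR2KO_ApcMin and ApcMin colon tumours, against 19299 and 25955 in ACKR2KO and WT colon. Small-intestinal Tff3 was 28531 and 20375 in the ACKR2KO_ApcMin and ApcMin tumours, against 27091 and 27480 in ACKR2KO and WT tissue. As for Fcgbp, both colon tumour arrays lay below all other arrays, here within a 2.36-fold range.

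Agr2, the disulphide isomerase, had 12648 and 14647 in ACKR2KO_ApcMin and ApcMin colon tumours, against 13661 and 12976 in ACKR2KO and WT colon. Agr2 in small intestine was at 11813 and 9124 in the ACKR2KO_ApcMin and ApcMin tumours, against 14716 and 9227 in ACKR2KO and WT tissue. These values, from the brighter Agr2 probe set, overlapped between tumour and non-tumour tissue in both organs, within a 1.61-fold range. At the dimmer one, described below, both small-intestinal tumour arrays lay below both non-tumour small-intestinal arrays. Spink4 had 22526 and 20787 in ACKR2KO_ApcMin and ApcMin colon tumours, against 12991 and 12949 in ACKR2KO and WT colon. Its signals in small intestine were 31380 and 21306 in the ACKR2KO_ApcMin and ApcMin tumours, against 29151 and 25094 in ACKR2KO and WT tissue. Spink4 was the only member of the 8 whose 2 lowest arrays were both non-tumour colon.

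Retnlb varied far more than the rest. In colon it had 2202 in ACKR2KO_ApcMin tumours and 10813 in ApcMin tumours, against 9.86 in ACKR2KO tissue and 5617 in WT tissue. In small intestine the signals were 3636 in ACKR2KO_ApcMin tumours and 603 in ApcMin tumours, against 254 in ACKR2KO tissue and 1912 in WT tissue. Neither tissue, tumour status nor ACKR2 genotype alone separated these 8 values. The signal of ACKR2KO colon lay below the floor, so the size of a single-pair difference from it is a lower bound, and fitted values that use it depend on the floor.

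Tumours were set against non-tumour tissue to ask which mucus genes differ in tumours. In colon, 3 of the 8 members were called, against 23.6% of all 14023 genes tested, so the share is not far from the background. Fcgbp and Tff3 fell and Spink4 rose, each in 2 of 2 pairs of arrays of the same ACKR2 genotype. Fcgbp was 2.27-fold lower in ACKR2KO_ApcMin tumours than in ACKR2KO colon, and 3.23-fold lower in ApcMin tumours than in WT colon. The fitted log2 difference was -1.44 ± 0.28 (SE, limma adjusted p = 0.0184). Tff3 had a log2 difference of -0.74 ± 0.20 (adjusted p = 0.0445) and Spink4 of 0.74 ± 0.21 (adjusted p = 0.0474), both close to the threshold. Among the 5 members that were not called, Clca1 had -1.07 ± 0.43 (adjusted p = 0.127) and was lower in 2 of 2 pairs. Retnlb had 3.02 ± 1.22 (adjusted p = 0.129) and was higher in 2 of 2 pairs, by at least 34.3-fold in ACKR2KO_ApcMin tumours against ACKR2KO colon and by 1.92-fold in ApcMin tumours against WT colon. Zg16 and Agr2 had adjusted p-values of 0.329 and 0.959, and Muc2 one of 1. The median log2 difference was -0.18 over the 8 members and 0.00 over all genes tested.

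With 1 array, both WT arrays or both ACKR2KO_ApcMin arrays left out, limma called 0 genes in this comparison (2360 to 5235 at an unadjusted p under 0.05). The difference then ran from -1.86 to -0.97 for Fcgbp, from 0.52 to 0.96 for Spink4; for Tff3 it stayed below 0 and came to -0.33 at the least. Markers of other cell types moved with tumour status. All 10 smooth muscle genes were called lower in colon tumours, and their summed signal was 9915 and 36200 in ACKR2KO_ApcMin and ApcMin tumours, against 116330 and 137520 in ACKR2KO and WT colon. The 12 epithelial genes, of which 1 was called higher and 2 lower, summed to 146770 and 147020 in the tumours, against 156770 and 175050 in the non-tumour arrays. Set relative to the mean log2 signal of these epithelial genes, Fcgbp stood at -0.60 and -0.34 in ACKR2KO_ApcMin and ApcMin tumours, against 0.32 and 1.11 in ACKR2KO and WT colon. Spink4 stood at 1.46 and 1.12 in the tumours, against 0.40 and 0.20 in non-tumour colon, and Tff3 at 0.86 and 0.34, against 0.97 and 1.20. On that scale too, each of the 3 kept its direction in both pairs. Paneth cell genes moved as well, with 6 of 7 called higher. These 7 include no defensin. Their summed signal was 95941 and 88237 in ACKR2KO_ApcMin and ApcMin colon tumours, against 3143 and 21335 in ACKR2KO and WT colon. The part of these other cell types, and of the sex-linked differences between the pools, in the results was not tested.

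In small intestine, 0 of 8 members were called for tumours against non-tumour tissue with limma, against 3.97% of all genes tested (557 of 14023). Adjusted p-values of the 8 ran from 0.573 to 0.909, and the median log2 difference was -0.17 over the members and 0.04 over all genes. Leaving Retnlb aside, the other 7 members had log2 differences of -0.32 to 0.12 for ACKR2KO_ApcMin tumours minus ACKR2KO tissue. All 7 were lower in ApcMin tumours than in WT tissue, with log2 differences of -0.98 to -0.02. The brightest signals of these 2 arrays differed too, the 20th highest being 25891 in ApcMin tumours and 32818 in WT tissue. Relative to the mean log2 signal of the epithelial genes, Agr2 (-0.19 against -0.48) and Spink4 (1.04 against 0.96) were higher in these tumours. Muc2, Tff3, Fcgbp, Clca1 and Zg16 stayed lower on that scale. Retnlb went in opposite directions in the pairs: 14.3-fold higher in ACKR2KO_ApcMin tumours than in ACKR2KO tissue, and 3.17-fold lower in ApcMin tumours than in WT tissue. Its fitted difference of 1.09 ± 1.22 (adjusted p = 0.680) was -1.36 without the ACKR2KO_ApcMin array of small intestine and -0.68 without the WT array of small intestine. Of the 10 smooth muscle genes, 7 were called lower here, against 1.20% of all genes tested. The 10 summed to 12623 and 27172 in ACKR2KO_ApcMin and ApcMin tumours, against 69977 and 65271 in ACKR2KO and WT tissue. The test of the difference between the tumour effects of colon and small intestine called 0 of 8 members (adjusted p from 0.213 to 0.794), against 2.25% of all genes tested. So the calls of Fcgbp, Tff3 and Spink4 in colon were not shown to differ from their values in small intestine.

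**Figure D2:**
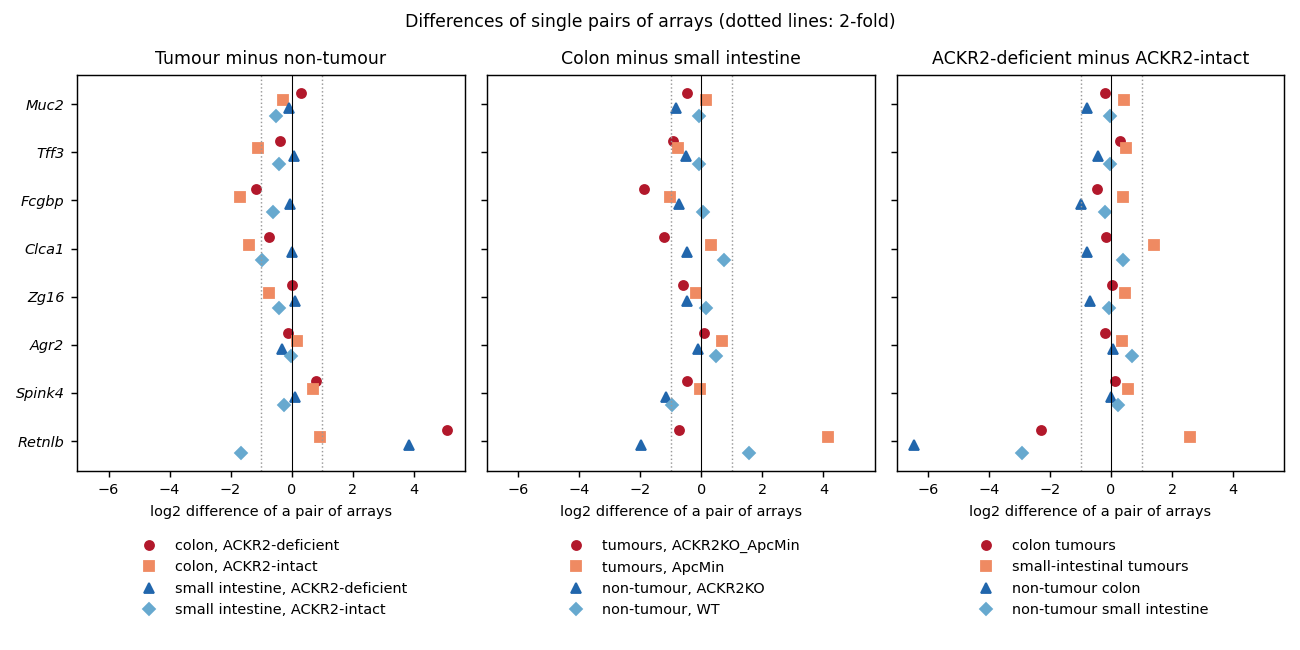
Log2 differences of the 8 mucus genes in single pairs of arrays that differ in 1 factor, for tumour minus non-tumour (left), colon minus small intestine (middle) and ACKR2-deficient minus ACKR2-intact (right). Each point is 1 pair and the dotted lines mark 2-fold. Fcgbp lies at -1.18 and -1.69 in the colon tumour pairs, and Retnlb reaches -6.45 for ACKR2KO against WT colon, a lower bound of the size.

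Colon was next compared with small intestine within each tissue state. Between non-tumour tissues, 1 of 8 members was called, against 21.4% of all genes tested. Spink4 was lower in colon, with a log2 difference of -1.06 ± 0.21 (limma adjusted p = 0.0174). The pairs gave -1.17 for ACKR2KO and -0.95 for WT. The other 7 had adjusted p-values from 0.277 to 0.941. Between tumours, 2 of 8 members were called, against 13.1% of all genes tested, both lower in colon tumours. Fcgbp differed by -1.45 ± 0.28 (adjusted p = 0.0249), with -1.87 between the ACKR2KO_ApcMin tumours and -1.02 between the ApcMin tumours. Tff3 differed by -0.85 ± 0.20 (adjusted p = 0.0440), with -0.94 and -0.75 in the same pairs. Adjusted p-values of the other 6 ran from 0.305 to 0.727. Leaving out arrays as above ended all 3 calls; Fcgbp then lay between -1.87 and -1.02, Tff3 between -0.94 and -0.75 and Spink4 between -1.17 and -0.95. The median difference of colon from small intestine was -0.25 over the members without tumours and -0.32 in tumours, against 0.11 and 0.07 over all genes. Since the labels do not name the segment of the non-tumour small intestine, segment and tumour status cannot be told apart within small intestine.

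ACKR2-deficient and ACKR2-intact mice were compared to ask what loss of the receptor does. In tumours 0 of 8 members were called with limma, against 0.0357% of all genes tested (5 genes, 2188 at an unadjusted p under 0.05), with adjusted p-values of the members from 0.399 to 0.986. In non-tumour tissue 0 of 8 were called, against 0.685% of all genes tested (96 genes, 3478 at an unadjusted p under 0.05), with adjusted p-values from 0.0925 to 0.825. The lowest of these belonged to Retnlb, which had a fitted log2 difference of -4.68 ± 1.22. Retnlb was at least 87.6-fold lower in ACKR2KO than in WT colon and 7.52-fold lower in ACKR2KO than in WT small intestine. In tumours its direction differed between the organs: 4.91-fold lower in ACKR2KO_ApcMin than in ApcMin colon tumours, and 6.03-fold higher in ACKR2KO_ApcMin than in ApcMin small-intestinal tumours. These opposite values gave a fitted difference of 0.15 ± 1.22 (adjusted p = 0.986). With either small-intestinal tumour array left out, only the colon pair remained and the difference was -2.30.

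The gap between organs in the ACKR2 effect, colon minus small intestine, was -4.89 on the log2 scale in tumours and -3.54 in non-tumour tissue for Retnlb. The size of the tumour value was at the 100th percentile of all 14023 genes, and that of the other at the 99.99th. For the other 7 members the gap ran from -1.57 to -0.18 in tumours and from -1.20 to -0.21 in non-tumour tissue. Clca1 had the widest gap after Retnlb: it was 2.64-fold higher in ACKR2KO_ApcMin than in ApcMin small-intestinal tumours, but 0.892-fold in ACKR2KO_ApcMin against ApcMin colon tumours. Because the fit uses just such gaps as its measure of spread, it has no test of them. Unlike the Gapdh 3'/5' ratio, the sex-linked RNAs and the Actb 3'/5' ratio given above moved with these groups. So did the smooth muscle genes in tumours, whose summed signals, given above, were lower in the ACKR2KO_ApcMin than in the ApcMin tumours of both organs; their median log2 difference was -1.90, and 1 of 10, Synm, was called lower. Car1 was at 62.6 in ACKR2KO, against 18864 in WT small intestine. The part of these in the differences was not tested.

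Taken as single pairs of arrays that differ in 1 factor, 12.7% of all gene values over the 12 pairs were at least 2-fold apart. Of the 96 values of the members, 19 were. Retnlb accounted for 10 of these 19 and was at least 2-fold apart in 10 of its 12 pairs. The other 7 members had 9 such values of 84: Fcgbp in 4 pairs, Clca1 in 3, and Tff3 and Spink4 in 1 each. Muc2, Zg16 and Agr2 were in no pair 2-fold apart at their brightest probe set. Muc2 and Zg16 lay near the top of the range of the arrays, where the 20th highest signal of an array was 23615 to 34108. Spink4, Tff3 and Clca1 came near it in some arrays, with highest signals of 31380, 28531 and 31032. Whether signals this bright still follow the amount of RNA was not tested.

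**Figure D3:**
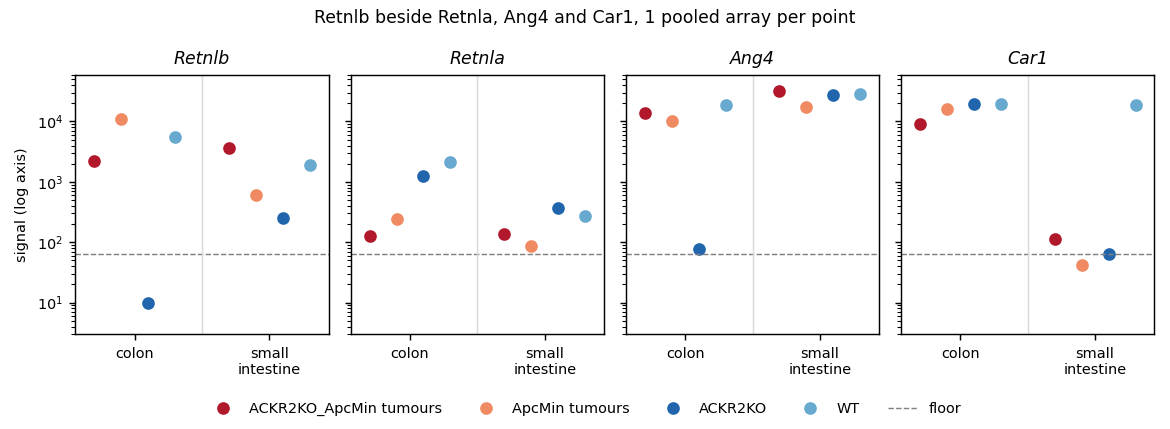
Signals (log axis) of Retnlb, its gene neighbour Retnla, Ang4 and the colonocyte gene Car1 in the 8 arrays, colon on the left and small intestine on the right of each panel; the dashed line is the floor of 64.1. Ang4 drops to 78.5 in the same ACKR2KO colon array in which Retnlb is at 9.86, and Car1 reaches 18864 in WT small intestine.

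Other genes were read beside Retnlb to place its swings. In the RefSeq annotation it lies next to Retnla and Retnlg, which encode related resistin-like molecules. Retnla did not follow it. Retnla had 124 and 246 in ACKR2KO_ApcMin and ApcMin colon tumours, against 1262 and 2140 in ACKR2KO and WT colon, and it fell in colon tumours by a log2 difference of -3.23 ± 0.48 (limma adjusted p = 0.00793). In small intestine it had 138 and 84.8 in the tumours, against 375 and 274 in non-tumour tissue (adjusted p = 0.146). Ang4, an antimicrobial ribonuclease of Paneth and goblet cells in mice, had 13923 and 10216 in ACKR2KO_ApcMin and ApcMin colon tumours, against 78.5 and 19086 in ACKR2KO and WT colon. In the small intestine Ang4 signals were 31543 and 17125 in tumours, against 27414 and 29032 in non-tumour tissue. ACKR2KO colon was thus the lowest array for both Ang4 and Retnlb, while it was not for Retnla. Il13, which encodes a cytokine known to induce Retnlb, was below the floor in all 8 arrays and was not tested, and Il4 did not exceed 80.8. Of 8 tested type 2 cytokines, alarmins and receptors, Il4ra rose in colon tumours (1.81 ± 0.25, limma adjusted p = 0.00697) and Il13ra2 fell (-1.10 ± 0.25, limma adjusted p = 0.0275). The share called is near the 23.6% of all genes tested that were called there, and Il13ra2 was called in only 4 of 10 other settings with all arrays. The alarmin Il33 had 1337 and 807 in colon tumours, against 442 and 365 in non-tumour colon (adjusted p = 0.0663).

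Genes with 2 or more probe sets gave a second reading. The dimmer probe set of Clca1 had 127 and 145 in ACKR2KO_ApcMin and ApcMin colon tumours, against 310 and 577 in ACKR2KO and WT colon. It had 507 and 97.3 in the small-intestinal tumours, against 536 and 258 in non-tumour small intestine. It followed the brighter probe set in sign in 11 of 12 pairs and varied more, over 5.93-fold against 3.27-fold. For ACKR2KO_ApcMin against ApcMin small-intestinal tumours it gave a 5.21-fold difference. The 3 probe sets of Zg16 stayed within 0.40 on the log2 scale of each other in every pair. In ApcMin colon tumours against WT colon, the probe set used for Zg16 was 1.66-fold lower. The others were 2.12-fold and 1.61-fold lower, so 1 of them passed 2-fold. The 2 probe sets of Agr2 disagreed. The dimmer, which has the suffix that Affymetrix gives to sets with probes shared between sequences, had 2239 and 2510 in ACKR2KO_ApcMin and ApcMin colon tumours, against 3006 and 1095 in ACKR2KO and WT colon. Its small-intestinal values were 1082 and 1049 in the tumours, against 2719 and 1447 in non-tumour tissue. At this probe set Agr2 was 2.75-fold higher in ACKR2KO than in WT colon, where the brighter one gave 1.05-fold. It was 2.29-fold higher in ApcMin tumours than in WT colon, against 1.13-fold at the brighter one. In small intestine it was 2.51-fold lower in ACKR2KO_ApcMin tumours than in ACKR2KO tissue, against 1.25-fold. Between ACKR2KO_ApcMin tumours it was 2.07-fold higher in colon than in small intestine, against 1.07-fold. Differences of Agr2 by ACKR2, tumour status and organ are therefore uncertain. Agr3, a close relative of Agr2, lies next to it in the annotation.

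**Figure D4:**
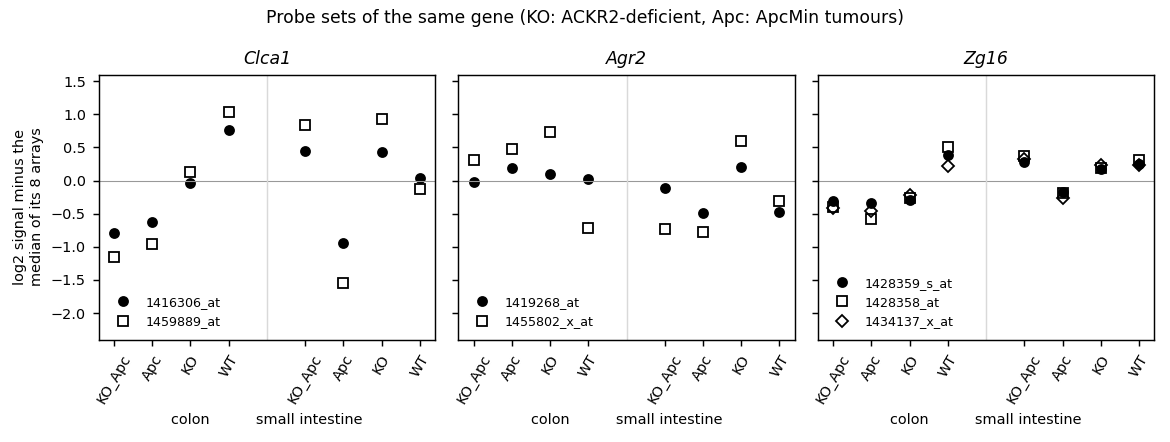
Log2 signal of each probe set of Clca1, Agr2 and Zg16 minus the median of its 8 arrays, by array, with colon on the left and small intestine on the right. Filled circles are the probe sets used in the tests. In a pair of arrays the probe sets differ by at most 0.40 on the log2 scale for Zg16, 0.98 for Clca1 and 1.38 for Agr2.

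Over the 8 arrays, the log2 signals of 5 members ran together, with Pearson's r from 0.61 to 0.92 in the 10 pairs of Muc2, Tff3, Fcgbp, Clca1 and Zg16. The highest r was 0.92, between Tff3 and Fcgbp, 0.89 between Tff3 and Zg16, 0.87 between Fcgbp and Zg16, 0.86 between Muc2 and Zg16 and 0.83 between Clca1 and Zg16. Agr2 had r between -0.33 and 0.28 with the other members, and Spink4 reached 0.51 with Muc2 but stayed at or below 0.23 with the others. Retnlb had r of 0.46 with Muc2 and at most 0.23 with the rest. These values describe 8 pooled arrays that share tissues, genotypes and scaling. The genes most like each member among all genes tested were Cdhr5, Ush1c and Arhgap26 for Fcgbp (r = 0.97), and Crip1, H2-K1 and Sectm1b for Tff3 (0.96 to 0.98). For Zg16 they were Atp5g3, Tpt1 and Actb (0.97 to 0.98), for Clca1 Sptbn1, Cox6c and Itm2b (0.95 to 0.97) and for Muc2 Gdf2, Ttbk1 and Rrbp1 (0.91 to 0.95). For Agr2 they were Ms4a8a, Sri and Idh3a (0.90 to 0.93), for Spink4 Pik3ap1, Cers2 and Spg20 (0.98 to 0.99) and for Retnlb N4bp1, Efna3 and Cep152 (0.95 to 0.96). With 14023 candidates and 8 points, values this high are found for every member.

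Groups of genes that work with these products were read in the same fit, where 11.03% of all genes tested were called higher and 12.6% lower in colon tumours, and 2.77% higher and 1.20% lower in small-intestinal tumours. In colon tumours, 2 of 20 other goblet cell products rose and 6 fell (median log2 difference -0.40). Itln1, an intelectin that binds microbial sugars and is also a product of Paneth cells, had 7071 and 2745 in ACKR2KO_ApcMin and ApcMin tumours, against 36.7 and 104 in ACKR2KO and WT colon. It rose by 5.75 ± 0.27 on the log2 scale (limma adjusted p = 0.000596), with 1 of the 2 non-tumour values under the floor. Tgm3, a protein-cross-linking transglutaminase, had 744 and 483 in the tumours, against 9655 and 24457 in non-tumour colon, and fell (-4.68 ± 0.53, adjusted p = 0.00419). Scin, which encodes an actin-severing protein, fell by 1.84 ± 0.36 (adjusted p = 0.0185). The tumour effects of colon and small intestine differed for Itln1 (6.33 ± 0.38, adjusted p = 0.00405) and Tgm3 (-5.04 ± 0.74, adjusted p = 0.0346). In small-intestinal tumours 0 of these 20 genes were called.

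Enzymes that build the sugar chains of mucins followed no single direction in colon tumours, where 1 of 15 tested rose and 3 fell. Galnt3, which starts O-linked chains, rose (1.25 ± 0.14, limma adjusted p = 0.00437). Gcnt1, which branches them, fell by 1.43 ± 0.19 (adjusted p = 0.00586). Nans and Uap1, enzymes of sialic acid and amino sugar synthesis, fell too, with adjusted p-values of 0.0273 and 0.0473; Uap1 was called in 3 of 11 other settings with all arrays. Gcnt1 was also called in 2 further comparisons. In small-intestinal tumours its fitted difference was -0.99 ± 0.19 (limma adjusted p = 0.0451), the only call among the 15 there, which held in 5 of 11 other settings. Gcnt1 had 416 in ACKR2KO_ApcMin tumours against 1680 in ACKR2KO small intestine, but 427 in ApcMin tumours against 418 in WT small intestine. It was thus lower in the ACKR2-deficient pair only. Without tumours, Gcnt1 had 3191 and 1680 in ACKR2KO colon and small intestine, against 1048 and 418 in WT colon and small intestine (1.81 ± 0.19, adjusted p = 0.0378), a call that held in 6 of 11 other settings.

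Of 22 genes for folding, trafficking and release of secreted proteins, 6 rose and 1 fell in colon tumours (median 0.25). Fkbp11, a folding enzyme of the endoplasmic reticulum, rose by 1.62 ± 0.30 (limma adjusted p = 0.0157), and Manf, a stress-induced protein of the same compartment, by 0.99 ± 0.14 (adjusted p = 0.00765). Rab27a, a GTPase of granule release, fell by 1.32 ± 0.25 (adjusted p = 0.0160). Ern2, the goblet cell stress sensor, was not called (adjusted p = 0.763). Among 10 transcription factors tied to the goblet cell lineage, Klf4 fell in colon tumours (-1.32 ± 0.31, adjusted p = 0.0292), while Foxa1 (0.68 ± 0.16, adjusted p = 0.0289) and Foxa3 (0.99 ± 0.28, adjusted p = 0.0485) rose. Foxa1 rose in small-intestinal tumours as well (1.04 ± 0.16, adjusted p = 0.0259). The factors that specify secretory and goblet cells, Atoh1 and Spdef, were not called in colon tumours (adjusted p = 0.109 and 0.537). Atoh1 had 564 and 1416 in ACKR2KO_ApcMin and ApcMin colon tumours, against 1385 and 2148 in ACKR2KO and WT colon. Spdef had 371 and 972 in the same tumours, against 386 and 618 in the same non-tumour arrays. In small intestine, Atoh1 had 811 and 742 in ACKR2KO_ApcMin and ApcMin tumours, against 1364 and 1313 in ACKR2KO and WT tissue. Spdef had 400 and 467 in those tumours, against 486 and 678 in non-tumour tissue. Neither was called for ACKR2 in tumours (adjusted p = 0.453 and 0.295).

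Among 5 tested transmembrane mucins, Muc20 rose in colon tumours (1.26 ± 0.30, limma adjusted p = 0.0292). Muc4, Muc13 and Muc1 were not called there, with adjusted p-values of 0.0803, 0.189 and 0.284. Muc1 was under the floor in all 4 small-intestinal arrays and had 926 and 327 in ACKR2KO_ApcMin and ApcMin colon tumours and 381 and 330 in ACKR2KO and WT colon. It was therefore higher in colon both in tumours and without them (adjusted p = 0.00600 and 0.00855). Of 6 other gel-forming mucins and trefoil peptides only Tff1 was tested, and it was called in none of the 7 comparisons. Between non-tumour colon and small intestine, Foxa2 was higher in colon (2.55 ± 0.24, adjusted p = 0.00170) and Cdx2 lower (-2.60 ± 0.47, adjusted p = 0.0134). Cdx2, a factor of intestinal identity, had 261 in ACKR2KO and 1725 in WT colon, against 2494 in ACKR2KO and 6639 in WT small intestine.

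**Figure D5:**
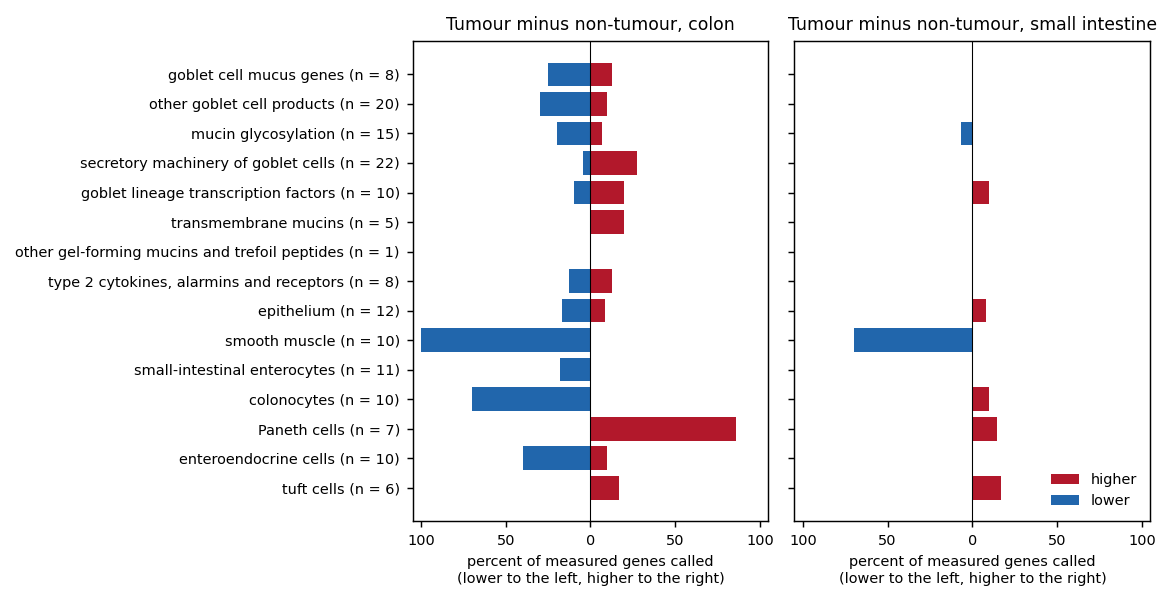
Share of the tested genes of each list that were called higher (right, red) or lower (left, blue) in tumours than in non-tumour tissue, for colon and small intestine, in percent of the tested genes, whose number stands beside the list name. In colon 1 mucus gene is higher and 2 are lower, against 10 of 10 smooth muscle genes lower and 6 of 7 Paneth cell genes higher; in small intestine 0 mucus genes are called.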

How the data were processed

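The deposited table held 1 column per array of intensity values, which the authors made with MAS5 and Partek, per the submitters' processing notes; versions are not given in the sources used here. RNA was extracted with Trizol and columns, pooled, and labelled with a 3' IVT kit, per the labels' protocols. Each array's mean was 500 once the lowest and highest 2% of its values were dropped, which equalises overall brightness and cannot show a change of total RNA; depth has no meaning for arrays, whose number (8) limits the precision. No raw array files were used. Of 45101 probe sets, 64 controls were left out; 34945 had 1 gene in the platform annotation, 932 several and 9160 none.

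For the floor of 64.1, the 40th percentile was taken in each array and then the median of the 8. Log2 was taken, and each gene was represented by its brightest probe set on average. Genes above the floor in at least 2 arrays were tested with limma 3.58.1 in R 4.3.3. The model had 6 coefficients: an intercept for each of tumour and non-tumour tissue in each organ, and for tumours and for non-tumour tissue an ACKR2 effect common to the organs. There were 2 residual degrees of freedom and, with a trend in the empirical Bayes step, 4.16 prior ones (median SD 0.22 on the log2 scale). Tests were two-sided, and p-values were adjusted over all 14023 genes. The procedure was tested on simulated data.

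The members were given, and the 14 gene lists were chosen, with earlier results of these data known. Named genes were the members; up to 4 called genes of a list and comparison with the largest difference; Spdef, Atoh1, Klf4, Ern2, Muc1, Muc4, Muc13, Retnla, Ang4, Il4, Il13, Il33 and Il4ra; the 3 genes most like each member; and Xist, Eif2s3y, Ackr2, Apc, Actb and Gapdh as checks. Car1, Aqp8 and Slc37a2 were singled out after their values were seen. Promoters came from RefSeq tables of GRCm38.p6, which held 3 of the 8 members; the array annotation names no build. Alternatives were other floors, filters, normalizations, probe set rules and models, and leaving out arrays.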

Additional observations from a re-analysis of the deposited data

Results flagged for a closer look

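Tff3 and Zg16 drew attention because their ACKR2 differences ran one way in both tumour pairs and the other way in both non-tumour pairs. For Tff3 the mean log2 difference, ACKR2-deficient minus ACKR2-intact, was 0.39 in tumours and -0.22 in non-tumour tissue. Its single values were 0.30 in colon tumours, 0.49 in small-intestinal tumours, -0.43 in non-tumour colon and -0.02 in non-tumour small intestine. For Zg16 the means were 0.25 in tumours and -0.39 in non-tumour tissue, from 0.04 in colon tumours, 0.46 in small-intestinal tumours, -0.69 in non-tumour colon and -0.08 in non-tumour small intestine. The difference between tumours and non-tumour tissue was not tested, and 1 of the 4 values of each gene lies within 0.04 of 0. Neither pattern was kept throughout. Relative to the mean log2 signal of the epithelial genes, Tff3 stood at 1.17 in ACKR2KO and 1.09 in WT small intestine. The direction of this pair was thereby turned round. For Zg16 the ACKR2 difference in tumours was -0.02 with quantile normalization, and at another of its probe sets non-tumour small intestine gave 0.003. The ACKR2 effect of either gene was called neither in tumours (limma adjusted p = 0.399 for Tff3 and 0.662 for Zg16) nor in non-tumour tissue (0.540 and 0.387). A search for single arrays that stand apart within a group was not possible with 1 array per group.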

How the results depend on the processing

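No paired analysis was possible because each group held 1 array and the labels give no replicate numbers. The 6 calls of members kept their direction in all 21 other settings, but not their side of the threshold. Fcgbp, Tff3 and Spink4 in colon tumours were still called in 10, 6 and 6 of 11 settings with all arrays. Called members in that comparison numbered 3, against 0 with no filter, 1 with arrays centred on their medians, 1 with the mean of all probe sets, 1 without a trend and 5 with arrays centred on the epithelial genes. Colon against small intestine without tumours had 1 called member, against 0 with no filter. Between tumours it had 2, against 0 with no filter, 1 with median centring, 1 with 1 ACKR2 effect for all arrays and 4 with epithelial centring; with the mean of all probe sets the 2 were Fcgbp and Agr2 (adjusted p = 0.0470), and Tff3 was not called (0.0554). Fcgbp and Tff3 between tumours held in 10 and 7 of 11 settings with all arrays, and Spink4 without tumours in 10 of 11. With no filter limma called 36 of 18193 genes higher and 51 lower in colon tumours (4649 at an unadjusted p under 0.05). Epithelial centring also called 1 member for tumours in small intestine, 3 for the difference of tumour effects, 1 for ACKR2 in tumours and 1 for ACKR2 in non-tumour tissue; there the prior degrees of freedom were infinite, so genes of like brightness shared 1 spread, and Retnlb was among those called in 5 of the 7 comparisons. Leaving out 1 array, both WT arrays or both ACKR2KO_ApcMin arrays (1 residual degree of freedom) left 0 called members in every comparison. With these left out, limma called 16 to 20 genes higher and 40 to 47 lower in 4 of 10 cases for colon against small intestine without tumours, and 0 otherwise (1240 to 5235 at an unadjusted p under 0.05). Retnlb reversed for tumours in small intestine without the ACKR2KO_ApcMin array (-1.36), the WT array (-0.68) or both ACKR2KO_ApcMin arrays (-2.55), with single arrays left out giving up to 3.53, and for ACKR2 in tumours with 1 ACKR2 effect (-2.27) or without either small-intestinal tumour array (-2.30, against 2.59 without either colon tumour array). Of the 50 member values not called, 33 changed sign in some setting. Of the 19 member values 2-fold apart, 9 remained when genes had to be above the floor in all 8 arrays, which drops Retnlb, and 12 passed 1.5 on the log2 scale. Median centring split all genes called for colon against small intestine without tumours into 1296 higher and 1767 lower, against 1821 and 1178. Of 56 called values of list genes 0 reversed, 3 were called in every setting with all arrays and 2 in any with an array left out; the least often called were Uap1 (3 of 11) and Il13ra2 (4 of 10) in colon tumours, Creld2 for the difference of tumour effects (4 of 11), and Foxa3 in colon and Gcnt1 in small-intestinal tumours (5 of 11 each).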
